A study of Rattus norvegicus with 90 samples.

Results

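Liver of pregnant Sprague-Dawley rats given Nafion byproduct 2 (NBP2) at 0.1, 0.3 or 1 mg/kg/d was compared with liver of control dams, all taken on gestation day 18 (GD18). NBP2 is a polyfluorinated ether sulfonic acid formed in fluoropolymer manufacture. The libraries were chosen by their labels alone: 12 of the 18 come from low-dose dams, with 4 dams at each dose, and 6 come from dams of dose 0. The series holds 90 libraries in all. The dams were time-mated, about 90 days old, and of the stock Crl:CD(SD). They were dosed by mouth from GD14 to GD18 and killed 2 to 4 h after the last dose. What the dose 0 dams received by mouth was not given in the sources used here. Each library holds RNA from a piece of 1 dam's liver of about 30 to 50 mg, and was read by TempO-Seq, in which pairs of probes are ligated on their target RNA, amplified and counted. Each group was split evenly between study blocks 140 and 143 of the labels, so 9 of the 18 libraries are of block 140, and block was a term in the fits at GD18 unless stated otherwise. Dams of 30 mg/kg/d at GD18, 4 in number, and 6 dams of a later age (GD21, 3 controls and 3 at 1 mg/kg/d from GD17 to GD21, all of block 144) were used to set the low-dose values beside a larger dose and beside other animals. The 3 later controls were also compared with 3 GD21 dams of 30 mg/kg/d, again of block 144.

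Liver answers many foreign compounds through nuclear receptors. CAR and PXR bind drug-like compounds or are released by them, enter the nucleus and switch on enzymes of drug metabolism, classically the Cyp2b and Cyp3a cytochromes P450 and the epoxide hydrolase Ephx1. PPAR-alpha senses fatty acids and switches on their breakdown in peroxisomes and mitochondria, with Ehhadh, Vnn1, Acot1 and Eci1 among its well-known target genes in rodent liver, and many perfluorinated acids bind it. In late pregnancy the maternal liver also raises lipid output and glucose production for the fetus.

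Promoters of 3 cytochrome P450 genes are shown because these genes rose at the large dose, and because 2 of them are near copies. Sequences are from RefSeq, build GRCr8, and all 3 genes had an entry. The first is Cyp3a23/3a1 (Cyp3a23-3a1 in RefSeq), GRCr8 chr12:14398804-14399053, minus strand, the 250 bases before the start site. Capitals mark a pair of TGAACT half-sites, which read AGTTCA on the other strand, in the same direction and 3 bases apart, from -144 to -130 relative to the start. Such a direct repeat with a spacer of 3 is the classical kind of PXR element. A search for this motif on either strand of 33469 promoters of 300 bases found it in 2 (0.00598%), this one and that of Cyp3a2. A match of letters is a description and not a measured binding site.
Cyp3a23-3a1: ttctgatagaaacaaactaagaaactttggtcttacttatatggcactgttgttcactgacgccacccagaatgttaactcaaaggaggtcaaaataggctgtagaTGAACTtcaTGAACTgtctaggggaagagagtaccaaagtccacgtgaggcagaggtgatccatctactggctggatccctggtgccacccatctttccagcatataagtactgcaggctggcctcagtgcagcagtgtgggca

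The other pair, Cyp2b1 and Cyp2b2, lie near each other in GRCr8, and 120 bases of each promoter are shown, at chr1:90645999-90646118 and chr1:90722144-90722263, both on the plus strand. Capitals mark the 3 bases that differ. Over the 233 bases that could be aligned, 225 (96.6%) were identical.
Cyp2b1: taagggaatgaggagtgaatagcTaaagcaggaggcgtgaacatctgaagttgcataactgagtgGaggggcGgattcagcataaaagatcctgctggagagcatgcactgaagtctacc
Cyp2b2: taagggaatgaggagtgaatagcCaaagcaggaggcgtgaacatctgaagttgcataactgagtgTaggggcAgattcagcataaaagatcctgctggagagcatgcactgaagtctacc

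The 18 libraries held 3667351 to 7211815 counts each, and 12405 to 20260 genes with a count. Genes with a count numbered 18461 or more in each block 140 library and 14006 or fewer in each block 143 library. Counts of chemosensory receptor genes (olfactory, vomeronasal and taste receptors, which hepatocytes are not known to use) summed to 1759 to 4421 CPM (counts scaled so that all libraries have the same total) in block 140 and to 26.2 to 62.6 CPM in block 143. Pairs of libraries of 1 group differed by a chi-square of 14.3 to 33.9 per degree of freedom over 33 pairs, more than counting noise alone would give, so no library was a copy of another. The labelled tissue showed its markers: albumin (Alb) averaged 7114 CPM in controls and 9023 CPM at the low doses. Per the labels, very abundant transcripts were dampened to the same degree in every sample.

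No gene passed the test between the pooled low doses and control. Of 12195 genes tested by edgeR's quasi-likelihood test, 0 (0%) had an adjusted p under 0.05, and the smallest adjusted p was 0.561. At an unadjusted p under 0.05 there were 869 genes (7.13%), 334 above and 535 below control, and DESeq2 called 0 genes as well, with 815 at that unadjusted level. A gene is counted here as above or below control by the sign of its fitted log2 fold change, after TMM scaling, which near 0 can differ from the order of the CPM means. The median log2 fold change over all genes was -0.03. The 95% confidence interval of the log2 fold change had a median half-width of 0.38, or 1.30-fold. These intervals are not adjusted for the number of genes tested, so a difference larger than that can go uncalled. The interval lay wholly within ±1, that is, within a doubling or halving, for 9477 genes (77.7%). Among genes with a mean log2 CPM of 3 to 6 that share was 97.3%, and among those of 6 or more 98.2%. Among the weakest genes, under 3, it was 58.6%.

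**Figure D1:**
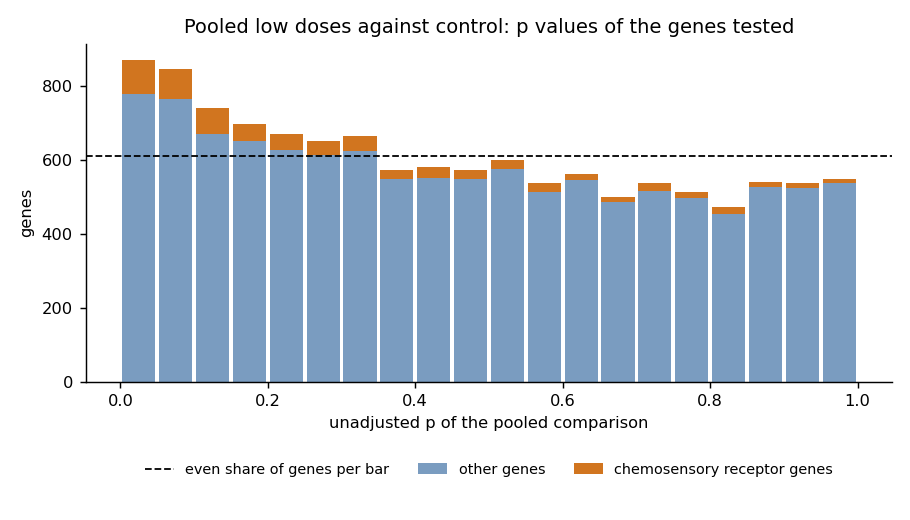
Unadjusted p of the pooled comparison for the 12195 genes tested, in bars of 0.05 (x axis, p; y axis, number of genes), with chemosensory receptor genes stacked in orange and the even share of 610 genes a bar as a dashed line. The first bar holds 869 genes, 93 of them receptor genes.

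Receptor genes held a larger share of small p values than other genes, all in 1 direction. Of the 1258 receptor genes in the file 667 were tested, 93 of them (13.9%) had an unadjusted p under 0.05, all 93 below control, and their median log2 fold change was -0.44. The other 11528 genes had 776 (6.73%) at that level, with a median of -0.02. All receptor genes together held 62.6 CPM or less in each block 143 library, so their counts come mainly from block 140. Receptor genes are read in the same libraries, and the 93 cannot be counted as separate results. Summed receptor CPM was 0.716-fold at the low doses against control (exact permutation test within blocks, two-sided, p = 0.0261 over 7056 arrangements). Within block 140 the ratio was 0.663 (exact permutation p = 0.0714) and within block 143 it was 0.772 (exact permutation p = 0.25). Without control dam 2070, 2115 or 2116 the pooled p was 0.0642, 0.0672 and 0.085. The edgeR test called 0 genes with receptor CPM as a covariate, where 801 had an unadjusted p under 0.05, and 0 with receptor genes left out, where 790 did. DESeq2 was not run with those settings.

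**Figure D2:**
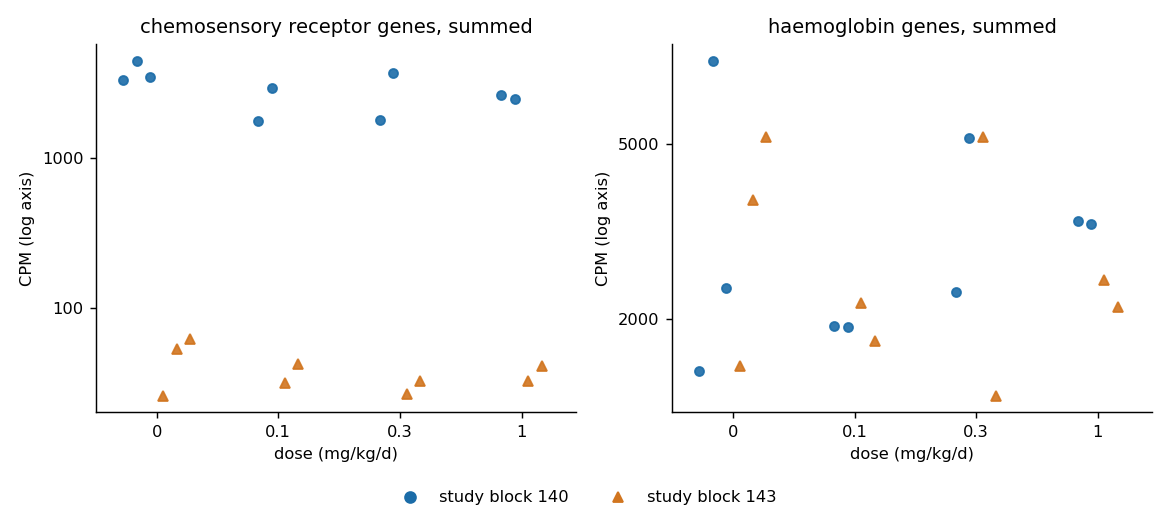
Summed CPM (log axis) of chemosensory receptor genes, left, and haemoglobin genes, right, in each of the 18 libraries by dose, with circles for block 140 and triangles for block 143. Receptor CPM separates the blocks, with 1759 CPM or more in block 140 and 62.6 CPM or less in block 143, while haemoglobin CPM overlaps between blocks and doses.

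Genes of drug metabolism that rose at the large dose were not called at the low doses. Of the 29 CAR and PXR targets listed, 19 are in the file and 16 were tested, 10 of those above control, with a median log2 fold change of 0.07 and 0 called. Cyp2b3 and Ephx1 are among the 10 by their fitted values, though their mean CPM was lower at the low doses than in controls. The comparison of 30 mg/kg/d with the pooled low doses, which holds no control library but shares the low-dose libraries, called 92 of 12705 genes (0.724%), 68 higher and 24 lower. Of the CAR and PXR targets 18 were tested there, 10 were higher and 0 were lower. Members of this list were chosen with earlier results of these data known, so that count is no separate test. The comparison of 30 mg/kg/d with control called 22 of 13189 genes (0.167%), 21 higher and 1 lower, and it shares the 6 control libraries with the pooled comparison, so its values are set side by side and no overlap is counted.

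Cyp2b2, a phenobarbital-inducible cytochrome P450, had the largest upward log2 fold change of all genes tested in the pooled comparison, and was not called. In the controls of block 140 it measured 0.283, 2.00 and 0.119 CPM, and in those of block 143 it measured 10.3, 22.2 and 23.1 CPM. At 0.1 mg/kg/d it was 39.1 and 1.77 CPM in block 140 and 47.9 and 35.2 CPM in block 143. At 0.3 mg/kg/d the values were 8.76 and 0.00249 CPM in block 140 and 43.7 and 22.6 CPM in block 143. At 1 mg/kg/d they were 18.3 and 10.0 CPM in block 140 and 37.1 and 74.3 CPM in block 143. Within block 140, 4 of 6 low-dose dams lay above every control and 1 below, and within block 143, 5 of 6 lay above every control. The log2 fold change was 2.00 ± 0.59 (SE), with a 95% interval of 0.77 to 3.22, an unadjusted p of 0.00274 and an adjusted p of 0.624. It was 4.04 in block 140 alone, where control levels were close to 0, and 1.29 in block 143 alone. The difference between blocks had an adjusted p of 0.875. With receptor CPM as a covariate the log2 fold change was 1.495, with an unadjusted p of 0.0584.

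Its near copy Cyp2b1 measured 3.17 to 63.0 CPM in the 6 controls and 38.4 ± 16.4 CPM (SD, n = 12) at the low doses, with 1 of 12 low-dose dams above every control. The log2 fold change was 0.38 ± 0.31 (SE), adjusted p = 0.794, and ran from 0.15 without control dam 2114 to 0.68 without control dam 2116. Counts of both genes are not whole in 89 of the 90 libraries, and how such values arose was not given in the sources used here. Cyp2b1 has chromosome 7 in the deposited file and Cyp2b2 has chromosome 1, while RefSeq has both on chromosome 1. The sum of Cyp2b1 and Cyp2b2, which a split of counts within the pair cannot alter, was 41.7 ± 20.3 CPM (SD, n = 6) in controls and 66.6 ± 26.8 CPM (SD, n = 12) at the low doses. Low-dose sums ran from 32.8 to 111 CPM and control sums from 13.5 to 65.0 CPM, and 6 of 12 low-dose dams lay above every control. The log2 fold change of the sum was 0.75 ± 0.29 (SE), or 1.68-fold with a 95% interval of 1.11 to 2.54, with an unadjusted p of 0.0173 and an adjusted p of 0.629. This was 1 of 2 sums added after the data were seen.

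At 30 mg/kg/d both genes were far above these levels. Cyp2b1 measured 444 and 1055 CPM in block 140 and 1360 and 612 CPM in block 143. Cyp2b2 measured 37.4 and 1404 CPM in block 140 and 1558 and 631 CPM in block 143, so 1 dam of block 140 lay within the low-dose range. The rise over control, on the log2 scale, was 4.85 ± 0.57 (SE) for Cyp2b1 (adjusted p = 0.00161) and 7.52 ± 1.01 (SE) for Cyp2b2 (adjusted p = 0.00431). Against the pooled low doses it was 4.47 (adjusted p = 2.16e-08) and 5.15 (adjusted p = 0.000171).

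Cyp3a23/3a1, the main PXR-driven cytochrome P450 of rat liver, measured 92.5 to 172 CPM in the 6 controls with a mean of 136 ± 30.2 CPM (SD). At the low doses it averaged 164 ± 77.7 CPM (SD, n = 12), from 65.8 CPM in a dam of 0.3 mg/kg/d to 326 CPM in another dam of the same dose and block. Of 12 low-dose dams 4 lay above every control and 2 below. The log2 fold change was 0.34 ± 0.25 (SE), adjusted p = 0.776, with a 95% interval of 0.875-fold to 1.82-fold, against 23.6-fold at 30 mg/kg/d. Without dam 2119, of 0.3 mg/kg/d, the log2 fold change was 0.20. Together with the model AABR07035374.1, which the deposited file places inside its interval, the sum had a log2 fold change of 0.32 ± 0.25 (SE), with an adjusted p of 0.785.

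Ephx1 and Slco1a4 were bounded closely. Ephx1, the microsomal epoxide hydrolase, measured 97.8 ± 18.1 CPM (SD, n = 6) in controls, 96.6 ± 12.3 CPM (SD, n = 12) at the low doses and 431 ± 89.3 CPM (SD, n = 4) at 30 mg/kg/d. Its fitted fold at the low doses was 1.03, with a 95% interval of 0.898 to 1.19, and in block 143 alone the log2 fold change was -0.11 and so of the other sign. Slco1a4, an organic anion uptake transporter, measured 109 ± 23.1 CPM in controls and 113 ± 24.9 CPM at the low doses, a fold of 1.07 with a 95% interval of 0.88 to 1.31. Against control at 30 mg/kg/d Ephx1 rose 4.31-fold (adjusted p = 5.54e-05) and Slco1a4 rose 2.81-fold (adjusted p = 0.00161). The aldehyde dehydrogenase Aldh1a1, named after its values were seen, had log2 fold changes of -0.08 ± 0.16 (SE) at the low doses and 1.92 at 30 mg/kg/d against control. Por, the electron donor of cytochromes P450, was too weak to be tested, at 0.58 to 2.00 CPM at the low doses and 0.621 to 1.63 CPM in controls. Alas1, the first enzyme of haem synthesis, had a log2 fold change of -0.08 ± 0.21 (SE), of the other sign in block 140 alone.

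**Figure D3:**
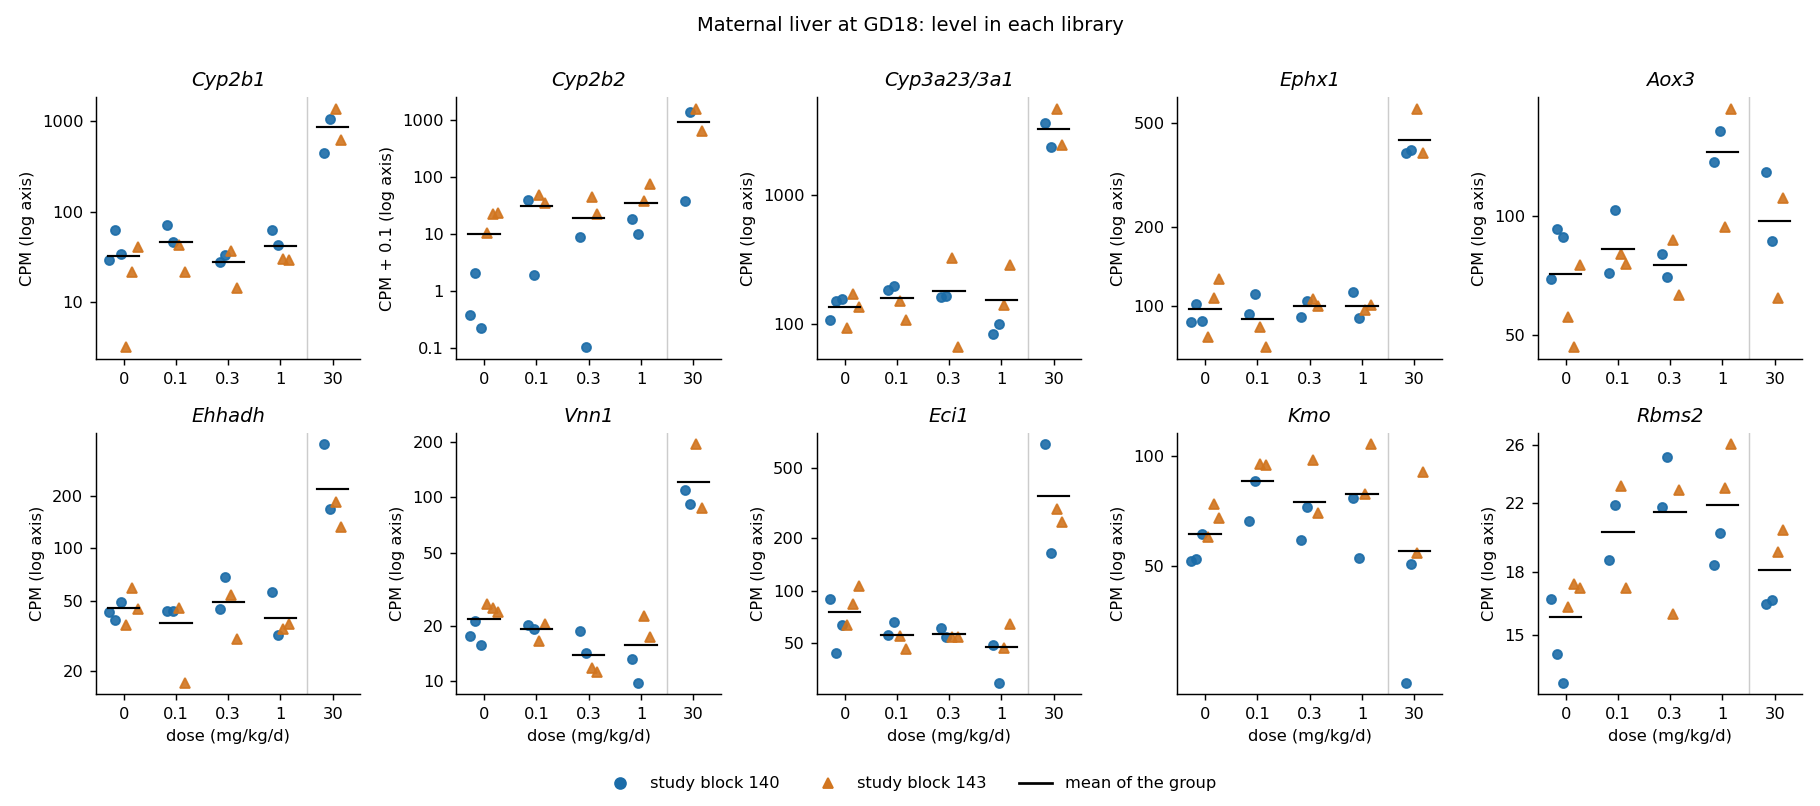
CPM (log axis) of 10 genes in each maternal GD18 library by dose in mg/kg/d, with circles for block 140, triangles for block 143 and a line at the mean of each group; 0.1 is added for Cyp2b2. Cyp2b1, Cyp3a23/3a1, Ephx1, Ehhadh and Vnn1 at 0.1 to 1 mg/kg/d overlap the controls, whereas all 4 dams of 30 mg/kg/d lie above all 18 other libraries in each of these 5 genes.

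None of the PPAR-alpha targets was called at the low doses. Of 35 listed, 30 are in the file and 23 were tested, 11 above control, with a median log2 fold change of -0.04 and 0 called. Ehhadh, the peroxisomal bifunctional enzyme, measured 43.0, 39.2 and 49.7 CPM in block 140 controls and 36.6, 59.2 and 45.0 CPM in block 143 controls. At the low doses it ran from 17.1 to 68.7 CPM, so the groups overlapped on both sides. Its fold was 0.97 with a 95% interval of 0.746 to 1.26, and the log2 fold change of -0.04 was 0.25 in block 140 alone. At 30 mg/kg/d it measured 394, 169, 185 and 133 CPM, a rise of 4.58-fold over control (adjusted p = 0.000663).

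Vnn1 and Eci1 had lower means at the low doses and higher levels at 30 mg/kg/d. Vnn1, the pantetheinase that is among the most PPAR-alpha-responsive liver genes, measured 15.7 to 26.3 CPM in controls and 9.79 to 22.6 CPM at the low doses, and 5 of 12 low-dose dams lay below every control. The difference on the log2 scale was -0.33 ± 0.16 (SE), with an unadjusted p of 0.048 and an adjusted p of 0.696. At 30 mg/kg/d it rose 5.44-fold over control (adjusted p = 7.53e-05). Eci1, which isomerises unsaturated fatty acids for mitochondrial beta-oxidation, averaged 75.5 ± 22.5 CPM (SD, n = 6) in controls and 53.3 ± 9.65 CPM (SD, n = 12) at the low doses. For Eci1 the log2 fold change was -0.43 ± 0.15 (SE), adjusted p = 0.624, and was -0.21 in block 140 alone, -0.62 in block 143 alone and -0.28 without control dam 2116. At 30 mg/kg/d Eci1 rose 4.37-fold over control (adjusted p = 0.0196). It measured 681 CPM in dam 2082 of that dose and 163 to 292 CPM in the other dams. Because the same controls stand in both comparisons, a high control value would lower both folds.

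Acot1, a cytosolic acyl-CoA thioesterase, was near the limit of detection at the low doses, from 0 to 1.16 CPM, with 0.183 to 1.98 CPM in controls and 17.8 to 72.9 CPM at 30 mg/kg/d. It was too weak to be tested in the pooled comparison. At 30 mg/kg/d it rose by 5.35 on the log2 scale against control (adjusted p = 0.000129). Against the pooled low doses it rose by 6.78 (adjusted p = 4.85e-09). Acot2, its mitochondrial relative, averaged 5.09 ± 0.589 CPM in controls and 4.13 ± 1.19 CPM at the low doses, and 7 of 12 low-dose dams lay below every control. This gave a log2 fold change of -0.24 ± 0.18 (SE), with an adjusted p of 0.773, against 2.24 at 30 mg/kg/d. Dam 2082 had 47.9 CPM at that dose, and the other dams 15.9 to 21.8 CPM. Hadhb, the thiolase subunit of the mitochondrial trifunctional protein, was named after its values were seen. It had a log2 fold change of -0.30 ± 0.11 (SE) at the low doses (unadjusted p = 0.0137, adjusted p = 0.624). At 30 mg/kg/d it had 1.09 against the pooled low doses, with 291 CPM in dam 2082 and 114 to 143 CPM in the others. The same low-dose libraries stand in both Hadhb values, so a low level there would lower the former and raise the latter. Pdk4, which turns off glucose oxidation, and Cpt1a, which lets fatty acids into mitochondria, had -0.29 ± 0.23 (SE) and -0.21 ± 0.19 (SE). Pdk4 was at -0.04 without control dam 2116, and Cpt1a at -0.04 without control dam 2071. The omega-hydroxylase Cyp4a1 had -0.06 ± 0.14 (SE) and the fatty acid binding protein Fabp1 had 0.03 ± 0.13 (SE).

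**Figure D4:**
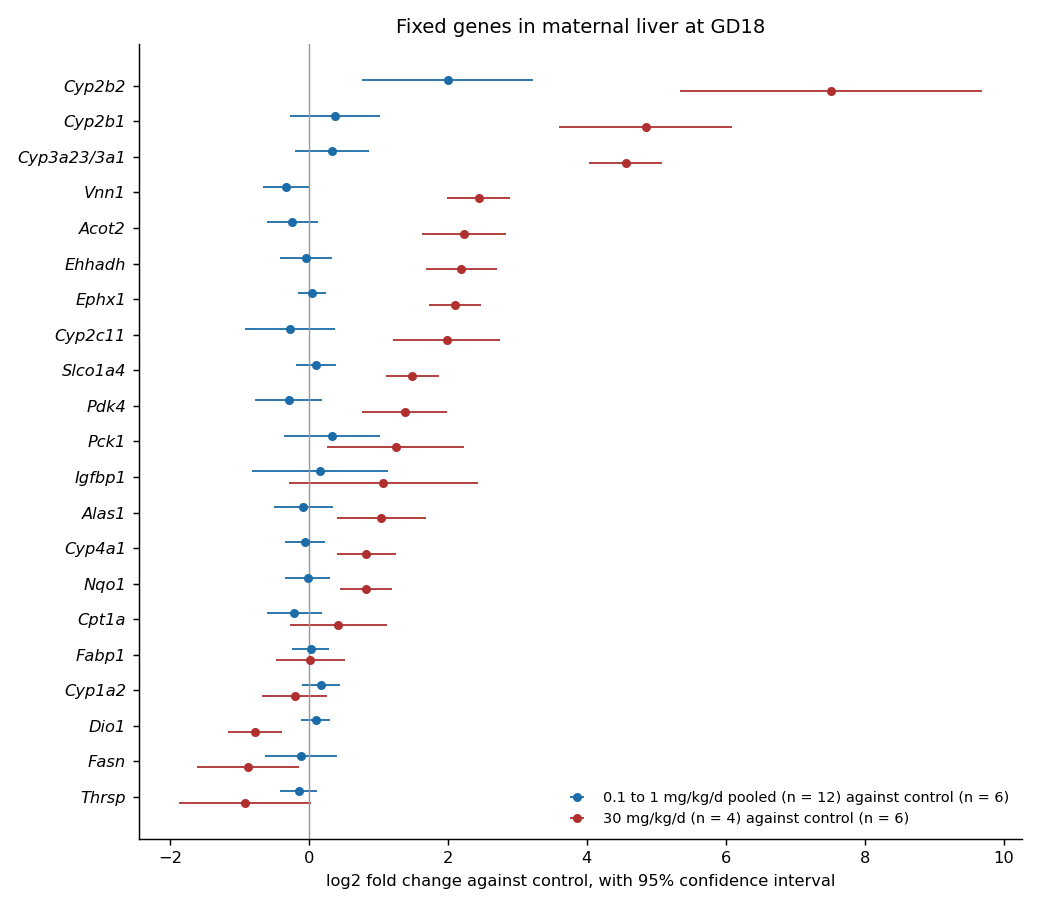
Log2 fold change against control with its 95% confidence interval for 21 listed genes that could be tested in the pooled comparison, with the low doses pooled in blue (n = 12) and 30 mg/kg/d in red (n = 4), both against the same 6 controls. All low-dose intervals but those of Cyp2b2 and Vnn1 include 0, and the 30 mg/kg/d points reach 7.52.

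None of the other fixed genes was called. Cyp1a2, which AhR ligands induce, had a log2 fold change of 0.18 ± 0.13 (SE), with an adjusted p of 0.78, and a mean slightly below control in block 143 alone (-0.08). Cyp1a1, the more selective AhR target, was too weak to be tested, at 0 to 4.86 CPM at the low doses and 0.366 to 2.50 CPM in controls. Nqo1, a target of NRF2 and AhR, had -0.01 ± 0.16 (SE), and its sign changed in several fits. The lipogenic genes Fasn and Thrsp had -0.12 ± 0.25 (SE) and -0.15 ± 0.13 (SE). Dio1, the deiodinase that thyroid hormone induces, had 0.10 ± 0.10 (SE), and was lower at 30 mg/kg/d than at the pooled low doses by a log2 fold change of -0.95 (adjusted p = 0.0035). Pck1, a gluconeogenic enzyme, had 0.33 ± 0.33 (SE), Igfbp1, a fasting-induced binding protein, 0.16 ± 0.47 (SE), and Cyp2c11, a male-biased cytochrome P450, -0.27 ± 0.31 (SE). Cyp7a1, the rate-limiting enzyme of bile acid synthesis, and Dbp, a clock output gene, were too weak to be tested, with no library of the 18 above 1.35 CPM and 0.98 CPM, respectively.

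Genes of smallest p were taken from those with a mean log2 CPM of 3 or more, receptor genes left out. Those with a higher mean at the low doses were Rbms2, Kmo, LOC103690020 and Mreg, none of them called. They ranked 1, 2, 3 and 8 by p among all genes tested. Coordinates are those of the deposited file, for which the submitters' processing notes name the build rn6. Rbms2 (chr7:2554308-2588844), an RNA-binding protein gene, averaged 15.8 ± 1.76 CPM (SD, n = 6) in controls and 21.1 ± 3.13 CPM (SD, n = 12) at the low doses, and 10 of 12 low-dose dams lay above every control. The low doses differed from control by 0.49 ± 0.10 on the log2 scale (SE), unadjusted p = 0.000119, adjusted p = 0.561, and was 0.16 at 30 mg/kg/d against control. Kmo (chr13:93684437-93716228), the kynurenine monooxygenase of tryptophan breakdown, measured 51.4 to 73.9 CPM in controls and 52.4 to 107 CPM at the low doses, with 7 of 12 low-dose dams above every control. For Kmo the log2 fold change was 0.44 ± 0.10 (SE), adjusted p = 0.561, and it was -0.25 at 30 mg/kg/d. Kmo measured 23.9 CPM in dam 2082 of 30 mg/kg/d and 50.4 to 90.1 CPM in the other dams of that dose. Both genes had a higher mean at the low doses than at 30 mg/kg/d, with log2 differences of -0.39 and -0.73 that were not called either (adjusted p = 0.193 and 0.119). They were picked by their low-dose values, and the same low-dose libraries stand in this comparison, so it is no separate test.

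LOC103690020 (chr4:14212925-14241273) averaged 456 ± 116 CPM (SD, n = 6) in controls and 629 ± 69.9 CPM (SD, n = 12) at the low doses. The log2 fold change of 0.52 ± 0.12 (SE), adjusted p = 0.561, was 0.66 without control dam 2069, the highest control at 628 CPM, and its adjusted p was then 0.0477. Its counts were not whole in 89 of 90 libraries. This was 1 gene called in 1 of the 18 fits that left out a library. Mreg (chr9:79490050-79545025), a melanosome transport protein gene, had 0.34 ± 0.08 (SE), adjusted p = 0.561, and 7 of 12 low-dose dams above every control.

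Within the same limits, the genes of smallest p with a lower mean at the low doses were P2rx4, AABR07032392.1, LOC691716 and Gramd1c. By p they ranked 6, 10, 17 and 22 among all genes tested. P2rx4 (chr12:39308025-39325674), an ATP-gated ion channel gene, measured 17.0, 60.4 and 24.3 CPM in block 140 controls, 18.1, 20.3 and 25.1 CPM in block 143 controls and 7.49 to 19.6 CPM at the low doses. Of 12 low-dose dams 9 lay below every control. The value of -0.85 ± 0.20 (SE) for the log2 fold change, adjusted p = 0.561, was -0.50 without control dam 2070, the library at 60.4 CPM. AABR07032392.1 (chr18:63824407-63825409), a predicted gene, measured 57.2 CPM in the same dam and 12.8 to 25.7 CPM in the other controls, and its log2 fold change of -0.73 ± 0.18 (SE) was -0.39 without that dam. Dam 2070 also had the highest summed receptor signal of the 18 libraries, 4421 CPM. LOC691716 and Gramd1c had -0.53 ± 0.14 (SE) and -0.37 ± 0.10 (SE), both with an adjusted p of 0.561.

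Taken dose by dose, no gene was called at 0.1, 0.3 or 1 mg/kg/d by edgeR. Of 12883 genes, 0 (0%) were called at each dose, with 1005, 578 and 587 genes at an unadjusted p under 0.05, in that order. DESeq2 called 8, 1 and 1 genes. The 8 at 0.1 mg/kg/d were Apom, Kmo, LOC108349189, Plpp1, Pml and Steap4, with a higher mean, and LOC691716 and P2rx4, with a lower mean. The 1 at 0.3 mg/kg/d was Rbm39, with a lower mean. Differences among the 3 doses were called for 0 (0%) of 12883 genes by edgeR (448 at an unadjusted p under 0.05) and 0 by DESeq2. The slope over the order 0, 0.1, 0.3 and 1 mg/kg/d was called for 0 (0%) of 12195 genes by edgeR (574 at an unadjusted p under 0.05), and for 2 by DESeq2, Aox3 and Endog.

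Aox3, an aldehyde oxidase of drug and aldehyde metabolism, came nearest to a call at 1 mg/kg/d and is named for that, after its values were seen. It measured 69.2, 92.7 and 88.7 CPM in block 140 controls and 55.4, 46.6 and 75.3 CPM in block 143 controls. At 1 mg/kg/d the values were 137 and 164 CPM in block 140 and 93.7 and 186 CPM in block 143, so all 4 dams lay above every control. At 0.1 mg/kg/d Aox3 ran from 71.6 to 104 CPM and at 0.3 mg/kg/d from 63.0 to 87.1 CPM, both overlapping control. Its log2 fold change at 1 mg/kg/d was 1.07 ± 0.17 (SE), unadjusted p = 4.98e-06, adjusted p = 0.0642 by edgeR and 7.92e-05 by DESeq2. By edgeR the adjusted p was 0.0495 without control dam 2116, and 0.0371, 0.0198, 0.0451 and 0.00484 without low-dose dams 2072, 2119, 2120 and 2121 in turn. At 0.1 and 0.3 mg/kg/d the log2 fold changes were 0.31 and 0.18. At 30 mg/kg/d Aox3 measured 62.1 to 129 CPM, a log2 fold change of 0.41 ± 0.20 (SE), with an adjusted p of 0.601, and in dams of the later age at 1 mg/kg/d it was 0.37 (adjusted p = 0.889). In those later dams it measured 128, 35.4 and 38.6 CPM against 58.7, 38.5 and 41.7 CPM in their controls. Endog, a mitochondrial nuclease gene, had a slope of 0.26 per step of dose (adjusted p = 0.0293 by DESeq2).

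The low-dose difference was also compared between the study blocks. Of 13595 genes 0 (0%) differed by edgeR, with 774 at an unadjusted p under 0.05, and 2 by DESeq2, Ifit2 and Pirb. Ifit2, an interferon-induced gene, measured 136, 129 and 152 CPM in block 140 controls and 200, 230 and 221 CPM in block 143 controls. At the low doses it ran from 147 to 210 CPM over both blocks. All 6 low-dose dams of block 140 lay above their controls, and 5 of 6 of block 143 lay below theirs. The difference of the log2 fold changes, block 143 minus block 140, was -0.73 ± 0.13 (SE), adjusted p = 0.169 by edgeR and 0.00044 by DESeq2, and the pooled log2 fold change was -0.03 ± 0.10 (SE). Without dam 2122 of 1 mg/kg/d the adjusted p by edgeR was 0.0189. Without control dam 2115, Rpl10l and AABR07058519.1 were called by edgeR. Isg15 and Oas1f, other interferon-induced genes, had pooled log2 fold changes of -0.10 and 0.11.

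Medians of the lists of metabolic genes ran from -0.13 for fatty acid synthesis to 0.07 for cholesterol synthesis and for lipoproteins and lipid transport. Below, each list is given by the number above control, by fitted value, and its median log2 fold change, beside 5209 of 12195 and -0.03 for all genes, and 0 members were called in any list. Lists were chosen with earlier results of these data known. Peroxisomal beta-oxidation had 6 of 12 above control and a median of -0.00, and mitochondrial beta-oxidation 5 of 18 and -0.09. Ketogenesis had 3 of 5 and 0.01. Fatty acid synthesis had 3 of 15 and -0.13, with Lpin1, a phosphatidate phosphatase, at -0.48 ± 0.18 (SE), or -0.27 without control dam 2071, and Acacb, which makes the malonyl-CoA that restrains beta-oxidation, at -0.39 ± 0.18 (SE). Cholesterol synthesis had 12 of 18 and 0.07, with Fdft1, squalene synthase, at 0.15 ± 0.08 (SE), and lipoproteins and lipid transport 11 of 14 and 0.07, with the apolipoprotein Apom at 0.31 ± 0.13 (SE).

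Secreted and amino acid metabolic proteins of the hepatocyte had mostly positive log2 fold changes, again without a call. Complement and coagulation had 17 of 20 above control and a median of 0.12, with coagulation factor F12 at 0.21 ± 0.07 (SE) and complement C3 at 0.20 ± 0.07 (SE). Urea cycle and amino acid breakdown had 10 of 15 and 0.12, with Otc, ornithine transcarbamylase, at 0.20 ± 0.07 (SE). The copper-binding ferroxidase Cp, an acute phase protein, had 0.33 ± 0.10 (SE), while the acute phase list had 9 of 16 and 0.00. Serpina7, thyroxine-binding globulin, measured 82.0 to 230 CPM in controls and 171 to 413 CPM at the low doses. Of 12 low-dose dams 8 lay above every control. The log2 fold change of Serpina7 was 0.74 ± 0.21 (SE), unadjusted p = 0.00239, adjusted p = 0.624, and it was -0.07 at 30 mg/kg/d. For Serpina7 in the later dams of 1 mg/kg/d it was -1.28 (unadjusted p = 0.0123, adjusted p = 0.887). The thyroid hormone target list had 6 of 9 above control and a median of 0.05.

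Lists of proliferation and damage response had mostly negative log2 fold changes. Many of their members are weak, such as Bub1 at a mean of 1.58 CPM in controls, and a median for weak genes alone is not given here. Receptor genes, as a set, had a median of -0.44. Cell cycle genes had 1 of 14 above control and a median of -0.22, with cyclin A, Ccna2, at -0.62 ± 0.28 (SE), or -0.40 without control dam 2070. Targets of p53 had 1 of 10 and -0.26, the 1 above control being Mdm2, the p53 inhibitor, at 0.25. Ccng1, one of these, measured 33.9 CPM in control dam 2070, 3.66 to 5.60 CPM in the other controls and 1.53 to 7.94 CPM at the low doses, and its log2 fold change of -1.07 ± 0.36 (SE), adjusted p = 0.624, was -0.25 without that dam. NRF2 targets had 5 of 14 and -0.10, with Ugdh, which makes UDP-glucuronate, at 0.25 ± 0.08 (SE). The bile acid list had 5 of 9 and 0.03, with the bile acid CoA ligase Slc27a5 at -0.79 ± 0.26 (SE) from levels of 3.13 CPM or less. In the growth hormone and sex-biased list, with 9 of 14 and 0.07, the steroid dehydrogenase Akr1c1 had the largest downward value of all genes tested, -2.91 ± 0.88 (SE), adjusted p = 0.624. Its levels fell into separate high and low sets within both groups, with 208, 186 and 6.04 CPM in block 140 controls and 220, 145 and 2.45 CPM in block 143 controls. Of the 12 low-dose dams, 2 were high, at 111 and 190 CPM, and the other 10 were at 13.3 CPM or less.

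**Figure D5:**
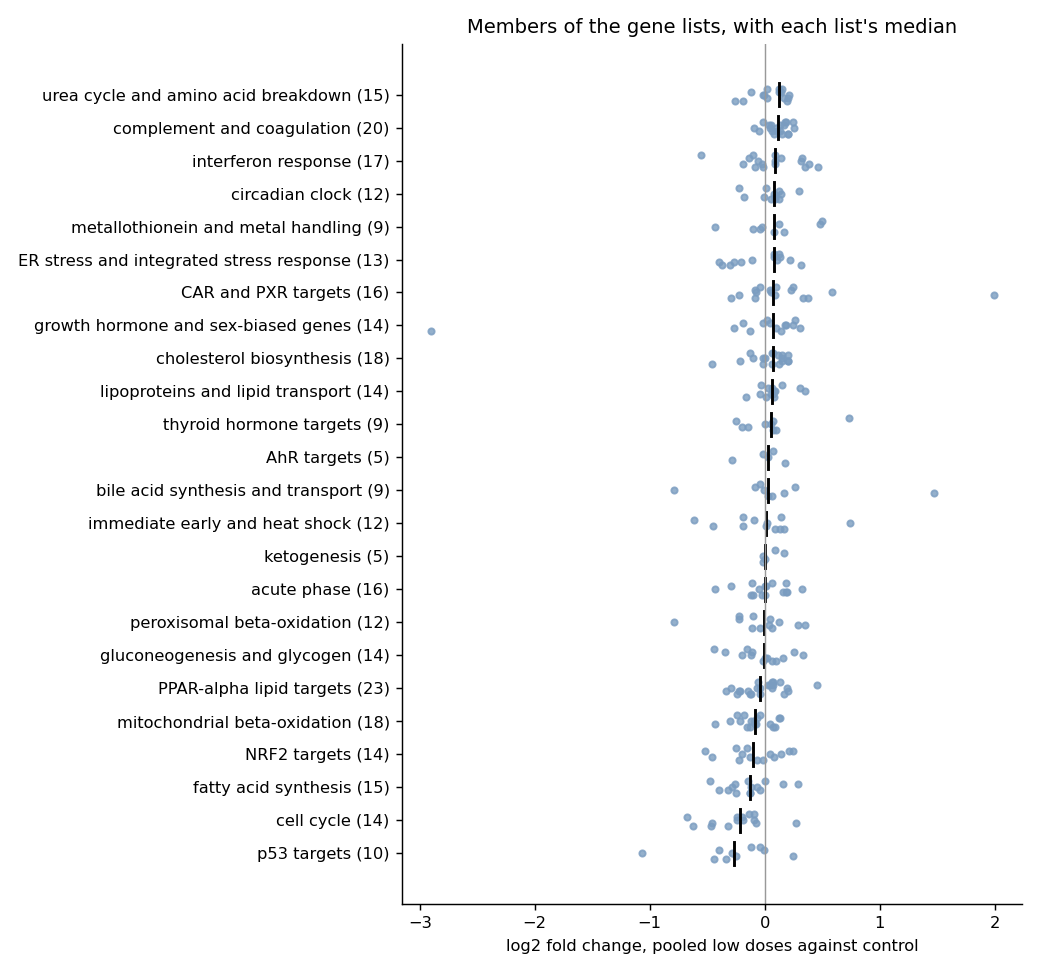
Log2 fold change of the pooled low doses against control (x axis) for the tested members of the 24 lists of liver functions (y axis, number tested in brackets), 1 point per gene, with each list's median as a black bar. Medians run from -0.26 for p53 targets to 0.12 for urea cycle and amino acid breakdown.

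No marker of any cell type was called. In bulk tissue, fewer cells of a type and less RNA per cell cannot be told apart. Hepatocyte markers had 8 of 9 above control by fitted value and a median of 0.09, though Ttr and Fgb, counted among the 8, had lower mean CPM at the low doses (171 against 178 CPM and 453 against 471 CPM). The list had summed levels of 21122 to 32521 CPM in controls and 21388 to 37048 CPM at the low doses. Albumin itself had a log2 fold change of 0.45 ± 0.16 (SE), with an adjusted p of 0.624. Macrophage and Kupffer cell markers had 12 of 13 above control and a median of 0.20, with 864 to 1263 CPM summed in controls and 943 to 1609 CPM at the low doses. Of these, the complement gene C1qb had 0.53 ± 0.16 (SE) and the Kupffer cell lectin Clec4f 0.33 ± 0.10 (SE), adjusted p = 0.624 for both. Erythroid markers had 2 of 11 and -0.30, 1 of those in the file was at 0 in all 18 libraries, and summed haemoglobin CPM was 0.823-fold (exact permutation p = 0.462). Lymphocyte markers had 1 of 7 and -0.19, neutrophil markers 0 of 3 and -0.44, and endothelial markers 6 of 10 and 0.05. Cholangiocyte markers had 0 of 6 and -0.13, stellate cell and fibroblast markers 3 of 7 and -0.10, and fetal hepatocyte markers 3 of 3 and 0.31. Of these last 3, Afp had 0.31 ± 0.13 (SE). Igf2 was weak, at means of 0.949 CPM in controls and 1.51 CPM at the low doses. Cyp3a9, which also stands in the CAR and PXR list, had 0.09 ± 0.23 (SE). Pancreas markers had 1 of 5 and -0.35, adipocyte 1 of 2 and -0.11, muscle 0 of 1 and -0.40, and placenta and yolk sac 2 of 7 and -0.22. Many members of these lists are weak, such as Ins1 at 1.88 CPM and Prl7b1 at 2.37 CPM on average in controls. The 2 placenta and yolk sac members above control, Ttpa and Rbp4, are not weak, at means of 203 and 7543 CPM in controls. The part of these marker levels in the gene values above was not tested.

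Dams of the later age gave values in animals and controls that the pooled comparison did not use. The series' design text gives their harvest as GD20, and the protocols and sample titles say GD21. At 1 mg/kg/d 0 (0%) of 8551 genes were called by edgeR, with 404 at an unadjusted p under 0.05, and 6 by DESeq2, namely Cyp2b1, Dhrs7l1, Igfbp1, Marc1 and Thbs1, with a higher mean, and Dpyd, with a lower mean. Without a filter on low counts edgeR called 16 genes. Cyp2b1 measured 67.8, 40.7 and 51.1 CPM at 1 mg/kg/d and 23.7, 18.9 and 19.1 CPM in controls, so the groups did not overlap. Its log2 fold change was 1.23 (unadjusted p = 0.00023, adjusted p = 0.887 by edgeR and 0.00746 by DESeq2), against 0.44 at 1 mg/kg/d and 0.38 pooled at GD18. Cyp2b2 measured 42.6, 107 and 48.0 CPM against 29.4, 11.6 and 40.4 CPM, 1.197 on the log2 scale (adjusted p = 0.887). Dhrs7l1, a dehydrogenase of the CAR and PXR list, measured 83.8, 35.5 and 28.9 CPM against 5.30, 11.5 and 5.13 CPM. Its log2 fold change was 2.59 (adjusted p = 0.887 by edgeR and 1.82e-05 by DESeq2) at the later age, 0.58 ± 0.40 (SE) in the pooled comparison and 3.34 at 30 mg/kg/d at GD18.

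Cyp3a23/3a1 and Ephx1 had -0.01 and 0.05 in these later dams. Vnn1 had -0.16, with 22.9, 42.2 and 38.35 CPM at 1 mg/kg/d. Its later controls measured 21.8 and 15.25 CPM, below all dosed dams, and 70.9 CPM in dam 2131, above all of them. Igfbp1 measured 217, 64.8 and 144 CPM against 43.8, 22.3 and 47.5 CPM in later controls, a log2 fold change of 1.76 (adjusted p = 0.887 by edgeR and 0.0117 by DESeq2), against 0.16 in the pooled GD18 comparison. Whether these values differ between ages was not tested, and age and study block are the same split. At 30 mg/kg/d and the later age 34 of 8523 genes (0.399%) were called, 29 higher and 5 lower. All 29 and all 5 were tested in the pooled GD18 comparison, which shares no library with that one. Of the 29, 16 were above control at the low doses, their median log2 fold change was 0.06 against -0.03 for all genes, and their median at 30 mg/kg/d at the later age was 1.76. Of the 5, 3 were above control, with a median of 0.10.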

How the data were processed

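Liver RNA of maternal GD18 dams was measured by TempO-Seq. Estimated counts per gene were deposited by the authors without normalisation, 1 column for each of 90 libraries and 20833 genes, and 7.61% of the values are not whole. A second file deposited by the authors holds log2 values of CPM plus 0.0001 and was used only as a check: all 1631610 values checked matched the counts within 0.01. Per the submitters' processing notes, STAR 2.7.3a, Partek and rn6 were used, with no role given. The labels mention no molecular identifiers.

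Estimated counts were rounded. The test was edgeR's quasi-likelihood F test (version 4.0.16, R 4.3.3), two-sided, after filterByExpr and TMM scaling, with study block as a term, only the compared groups in each fit (the low doses were taken singly, and compared with each other, from 1 fit of all 18 libraries), Benjamini-Hochberg over all genes tested, threshold 0.05. The prior count was 0.125, and SE is the log2 fold change over the square root of F. CPM are of unrounded counts. DESeq2 1.42.0 and other settings were alternatives. The labels name dams as the separate animals. Intervals of 95% give the uncertainty of the fitted log2 fold change, judged from the spread between libraries, 1 per dam. They do not cover the range of single libraries.

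Named genes were the 4 of smallest p in each direction, at a mean log2 CPM of 3 or more and with receptor genes left out. With them were 29 fixed genes and the member of smallest p of each of 24 lists of functions. Other genes were named after their values were seen, and not each is marked so where it stands. Of 603 entries in 37 lists (13 of cell markers), 512 are in the file; Per1 and Mt1a are not analysed here, and a fixed gene and a list member are not reported here. Members and lists were chosen with earlier results of these data known.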

Additional observations from a re-analysis of the deposited data

Results flagged for a closer look

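Among 144 groups of values tested (genes of smallest p, fixed genes, total counts and haemoglobin CPM, at each of 0, 0.1, 0.3 and 1 mg/kg/d), 12 (8.33%) had 1 library far from the others of its group by Dixon's criterion, which chance gives in about 1 in 20 groups. In controls, dam 2070 stood apart at 60.4 CPM for P2rx4, 57.2 CPM for AABR07032392.1 and 2406 CPM for Thrsp, all above the other 5 controls. Control dam 2116 stood apart at 1802 CPM for Cyp1a2 and 28.1 CPM for Pdk4. At 0.1 mg/kg/d, dam 2118 was low for Ehhadh at 17.1 CPM, where the other 3 measured 43.6 to 45.8 CPM, and apart for Por at 0.832 CPM, where the others measured 0.770 to 0.776 CPM. Dam 2117 was high for Fabp1 at 7861 CPM and dam 2073 for Cyp7a1 at 1.35 CPM. At 0.3 mg/kg/d, dam 2075 was high for Cyp1a1 at 4.86 CPM, and dam 2120 had a low total of 5002914 counts. At 1 mg/kg/d, dam 2076 was high for Cyp1a2 at 1716 CPM. Dams of 30 mg/kg/d were not in this screen. Of these, dam 2082 measured 310 CPM for Fth1, 171 CPM for Thrsp and 18.2 CPM for Ugdh. The other dams of that dose measured 4961 to 5314, 811 to 1725 and 88.0 to 116 CPM, in that order.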

How the results depend on the processing

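No paired analysis was possible because the numbers in the labels are dam numbers and no dam is in more than 1 of the groups compared. The pooled comparison had 0 genes called under all 13 other settings, among them RLE factors, no filter, DESeq2, no block term and each block alone, and 0 to 1 when 1 library was left out (LOC103690020, without dam 2069). Near copies summed and the joint removal of dams 2070 and 2075 were chosen after seeing the data. DESeq2 called 2 genes for the slope, 8, 1 and 1 for 0.1, 0.3 and 1 mg/kg/d, 2 for the block difference, 396 for 30 mg/kg/d against the low doses, 68 against control and 6 at the later age. With no filter there were 1 at 1 mg/kg/d and 16 at the later age. Scored by the dose itself, the slope had 1, Aox3. With no block term there were 45 and 14 for 30 mg/kg/d against the low doses and control. Leaving out 1 library gave 0 to 1 at 0.1 and at 1 mg/kg/d, 0 to 2 for the block difference, 0 to 1 at the later age (Marveld1 without dam 2133), 50 (without dam 2127) to 124 for 30 mg/kg/d against the low doses and 15 to 47 (without dam 2082) against control. At 0.1 mg/kg/d the gene was Ireb2, without dam 2117. The cause of these moves was not tested. The log10 difference of total counts was 0.0416, and -0.0465 in block 140 alone and 0.130 in block 143 alone. That of receptor CPM was -0.145, and -0.178 and -0.112 in the blocks, with -0.201 to -0.112 without 1 library. That of haemoglobin CPM ran from -0.158 to 0.00832 without 1 library, above 0 without control dam 2070. Of 658 log2 fold changes of 51 genes under other settings, 637 kept their sign. In block 140 alone the sign turned for Slco1a4 (-0.0502), Alas1 (0.0660), Nqo1 (0.0877), Ehhadh (0.247), Fasn (0.0609) and Gsta2 (0.0672), and in block 143 alone for Ephx1 (-0.108), Cyp1a2 (-0.0819), Cpt1a (0.0193), Slc16a1 (-0.00754) and Hyou1 (-0.0215). With receptor CPM as a covariate it turned for Alas1 (0.123) and Fabp1 (-0.0760), and with haemoglobin CPM for Nqo1 (0.0522), Ehhadh (0.0194) and Fasn (0.0125). Nqo1 was 0.0234 with no filter, 0.00366 with no block term and 0.0143 without dams 2070 and 2075, Fasn 0.0136 without those dams, and Ehhadh 0.00957 at 0.1 and 0.3 mg/kg/d alone. Without 1 library the values ran from -0.172 to 0.0216 for Alas1, -0.106 to 0.0494 for Nqo1, -0.117 to 0.0798 for Ehhadh, -0.0557 to 0.185 for Fabp1 and -0.0517 to 0.447 for Igfbp1. Leaving out 1 library also moved values by over 1.5 times for Cyp1a2 (0.388 without control dam 2116), Thrsp (-0.0819 without control dam 2070), Cyp2c11 (-0.440 to -0.170) and Pck1 (0.15 to 0.60), among others. No gene was called in the main pooled comparison, so this holds for the genes whose sign turned as for all others.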

Other observations

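The remaining lists showed no common direction at the low doses. Interferon response genes had 9 of 17 members above control and a median log2 fold change of 0.09, with the antiviral GTPase Mx1 at 0.35 ± 0.12 (SE), adjusted p = 0.624. Circadian clock genes had 9 of 12 and 0.09, with the repressor Nr1d2 at 0.30 ± 0.20 (SE), or 0.18 without control dam 2069. Immediate early and heat shock genes had 7 of 12 and 0.01, and Zfp36, which speeds the decay of cytokine messages, measured 23.7 to 50.7 CPM in controls and 16.4 to 29.3 CPM at the low doses. Genes of ER stress had 7 of 13 and 0.08, with the chaperone Hyou1 at 0.32 ± 0.16 (SE), or 0.17 without control dam 2070. Metal handling genes had 5 of 9 and 0.08, with the ferritin chain Fth1 at 0.17 ± 0.07 (SE). Gluconeogenesis and glycogen genes had 7 of 14 and -0.01, with Ugp2, which makes UDP-glucose, at 0.25 ± 0.10 (SE). AhR targets had 3 of 5 and 0.03.

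Total counts were 1.10-fold at the low doses against control (exact permutation p = 0.245), 0.899-fold in block 140 (exact permutation p = 0.131) and 1.35-fold in block 143 (exact permutation p = 0.0238). The part of this difference in the gene values was not tested.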
